A study of Mus musculus with 16 samples.

Results

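The genes of immature, axon-extending olfactory neurons described here are Gap43, Marcks, Dbn1, Tubb3, Dcx, Dpysl3, Dpysl5, Crmp1, Gng8 and Ncam1. They were chosen by name as genes of that stage, and all 10 had a probe set among the 19505 genes measured. The arrays compared cells sorted from the olfactory mucosa of S100a5-tauGFP mice on a C57BL/6 background, of both sexes and 7 to 12 weeks old. In these mice a fluorescent protein is made under the control of S100a5, the gene of a calcium-binding protein whose level in olfactory sensory neurons follows their activity. Cells were thus sorted by reporter fluorescence and not by a marker of age, and the sort does not separate immature neurons from other cells of the same gate.

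The 24 mice were kept singly in clean air chambers for 40 h at 3.1 L/min and, from hour 26, received a 10 s pulse every 20 min. The pulse was bourgeonal, an aromatic aldehyde odorant, in one arm and filtered air in the other. Cells of 3 mice were pooled for each library, and 50 to 100 ng of RNA was hybridised to a Clariom S array. The 16 libraries form 4 groups of 4: odor titled GFP-, odor titled GFP+, vehicle titled GFP- and vehicle titled GFP+. The sample titles and the labels' cell type entries disagree on the gate in 16 of 16 samples, and the groups here follow the titles. Each gate ratio is the titled GFP- value minus the titled GFP+ value of the same pool on the log2 scale, so a negative ratio is a lower level in the library titled GFP-.

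Olfactory sensory neurons are replaced throughout life from progenitors at the base of the epithelium. A young neuron switches on growth cone and cytoskeletal genes such as Gap43, together with the G protein gamma subunit gene Gng8, while its axon grows to the olfactory bulb. On maturing it switches these off and switches on Omp and the odor transduction cascade, whose G protein contains the Gnal and Gng13 subunits.

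The libraries held RNA of mature olfactory neurons in both gates, while several other cell types differed between the gates. The mean log2 level over 17 mature neuron genes lay between 15.53 and 15.93 in the 16 libraries, on a scale whose library medians were 5.40 to 5.65. The 95th percentile of 321 vomeronasal receptor genes, used as a guide to background, was at most 4.97 in any library, and all 10 immature neuron genes averaged above it in all 4 groups. The 6 horizontal basal cell markers were all below it in every group. S100a5 measured 16.14, 16.24, 16.51 and 16.07 in odor libraries titled GFP-, against 15.07, 15.23, 15.67 and 14.62 in odor libraries titled GFP+. It measured 15.69, 16.17, 16.63 and 15.89 in vehicle libraries titled GFP-, against 14.84, 15.53, 15.46 and 14.75 in vehicle libraries titled GFP+. In 8 of 8 pools the gene that drives the reporter was thus higher on the titled GFP- side, by a mean log2 ratio of 1.02 (limma adjusted p = 2.16e-05). The titles call that side GFP-, while the cell type entries name it as the opposite gate, GFP+. Replicate libraries of a group correlated at 0.990 to 0.994 over all genes. Arrays have no read depth, so the number of pools limits the precision.

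The 10 genes divided between a strong difference and almost none. Gng8, Dpysl3, Gap43 and Marcks were lower in the libraries titled GFP-, by a mean log2 ratio over the 8 pools of -4.73, -4.15, -2.62 and -2.30, or 26.5-fold, 17.8-fold, 6.15-fold and 4.91-fold. Dpysl5 was lower by a smaller amount, -0.56, and Dbn1 by -0.26 on the deposited scale, although Dbn1 turned to 0.09 when each library was centred on its median. Crmp1, Tubb3, Dcx and Ncam1 did not pass the threshold of an adjusted p of 0.05. Over all pools 0 of the 10 genes were called higher and 6 lower, where 14.4% of all genes were called higher and 13.2% lower. In odor pools 0 were called higher and 6 lower (7.82% and 10.2% of all genes), and in vehicle pools 0 higher and 5 lower (6.23% and 9.95%). When each library was centred on its median, which adds 0.35 to every gate ratio, 3 of the 10 (Tubb3, Dcx and Ncam1) were called higher over all pools. Another 4 (Gng8, Dpysl3, Gap43 and Marcks) were called lower. With that centring 16128 of the 19505 genes were called, 88.9% of them higher, against 5378 and 52.2% as deposited. The median deposited ratio was -0.41 over all pools for the 10 genes and 0.10 for all 19505. For 6 of the 10 the library titled GFP- was the lower one in 8 of 8 pools, which held for 10.6% of all genes. For 4 of the 10 every titled GFP- library lay below every titled GFP+ library, which held for 6.9% of all genes. In sorted bulk RNA, fewer cells of a type and less RNA per cell cannot be told apart.

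**Figure D1:**
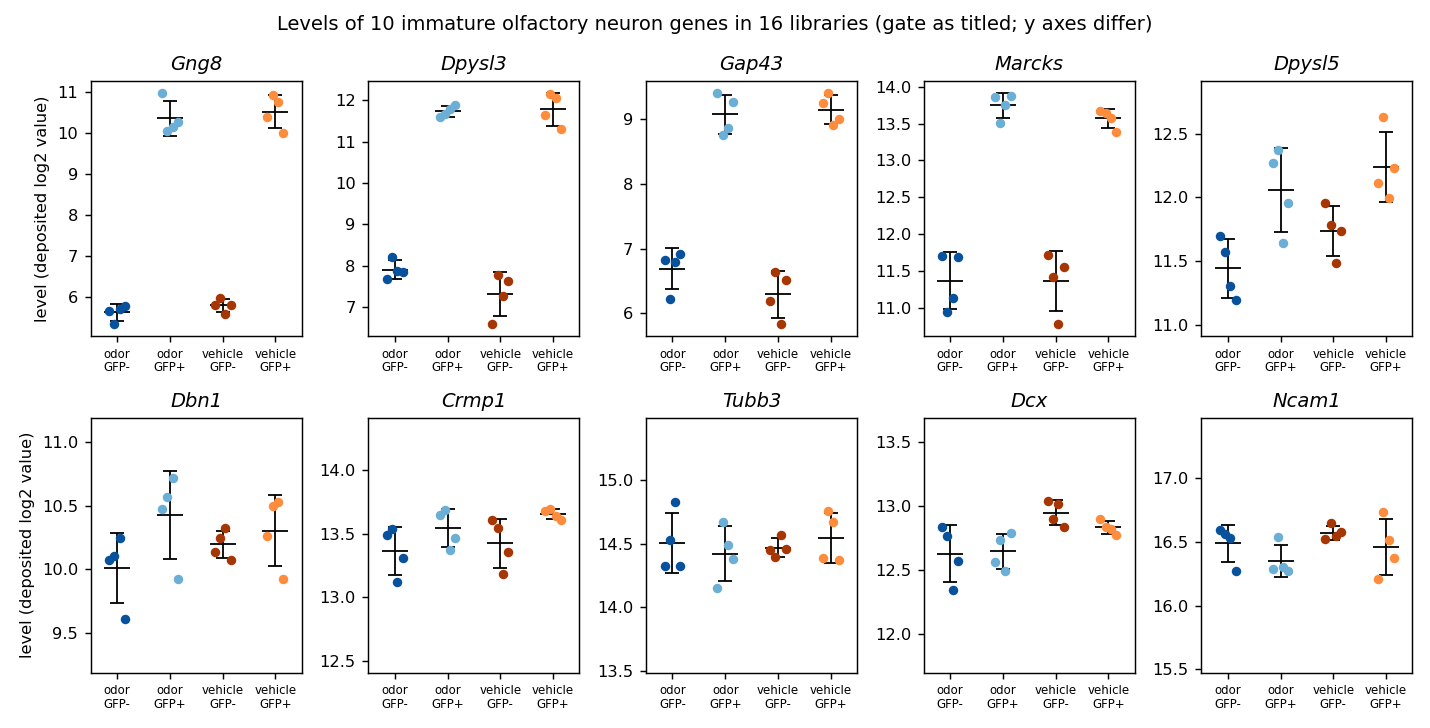
Log2 expression level (y axis, deposited scale) of each of the 10 genes in every library, in 4 groups of 4 libraries (odor before vehicle, titled GFP- before titled GFP+); each point is a library. Gng8, Dpysl3, Gap43 and Marcks form separate clouds by gate, while the gates overlap for Tubb3, Dcx and Ncam1.

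The start regions of 3 genes are shown because these genes span the range of gate ratios: Gng8 with the strongest difference, Dpysl5 with a modest one and Dcx with none past the threshold. RefSeq (GRCm38.p6) gave start regions for 6 of the 10 genes, those of Dpysl5, Crmp1, Gng8, Tubb3, Dbn1 and Dcx; Gap43, Dpysl3, Marcks and Ncam1 were not analysed here. Each run is the 250 bases before the annotated start, 5′ to 3′ on the gene's strand, and capitals mark a motif match.
Gng8, chr7:16891536-16891785, plus strand: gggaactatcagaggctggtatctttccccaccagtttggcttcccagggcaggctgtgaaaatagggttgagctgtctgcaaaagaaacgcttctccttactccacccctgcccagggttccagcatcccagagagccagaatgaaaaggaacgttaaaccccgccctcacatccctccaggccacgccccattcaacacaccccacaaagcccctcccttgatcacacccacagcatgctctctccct
Dpysl5, chr5:30711314-30711563, plus strand: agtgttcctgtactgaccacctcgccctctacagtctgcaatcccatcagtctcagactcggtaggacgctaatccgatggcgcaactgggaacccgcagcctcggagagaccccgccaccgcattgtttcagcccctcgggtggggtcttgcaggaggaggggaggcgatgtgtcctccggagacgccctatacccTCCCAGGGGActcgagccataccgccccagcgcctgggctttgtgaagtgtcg
Dcx, chrX:143933220-143933469, minus strand: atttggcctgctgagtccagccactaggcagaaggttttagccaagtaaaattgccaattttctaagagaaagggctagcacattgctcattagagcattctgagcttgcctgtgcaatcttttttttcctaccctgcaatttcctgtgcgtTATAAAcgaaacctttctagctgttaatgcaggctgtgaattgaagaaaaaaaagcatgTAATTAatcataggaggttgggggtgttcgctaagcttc
The following motifs were searched on both strands: CAGCTG (an E-box of neuronal bHLH factors), TCCC and GGGA with any 2 bases between them (a palindrome bound by Ebf factors), TAATTA (a homeodomain core) and TATAAA (the TATA box). The capitals in Dpysl5 are a match to that palindrome, whose first base lies at -53 from the start, and 0.779% of 32851 RefSeq start regions of this length held that motif. The capitals in Dcx are TATAAA at -98 and TAATTA at -39, which 12.4% and 4.84% of the start regions held. CAGCTG, held by 13.0%, was in none of the start regions of these 6 genes, and no searched motif was in those of Gng8, Tubb3, Crmp1 and Dbn1. The Gng8 run had a GC content of 56%, the Dpysl5 run 62.8% and the Dcx run 41.6%, against a median of 52.4% over all start regions. A match is a description of the letters and was not tested for binding.

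Gap43 encodes a phosphoprotein of the growth cone membrane, and it is the classic marker of the immature olfactory neuron. Its log2 level was 6.82, 6.22, 6.80 and 6.91 in odor libraries titled GFP-, against 9.40, 8.77, 8.87 and 9.27 in odor libraries titled GFP+. It was 6.20, 6.65, 5.83 and 6.51 in vehicle libraries titled GFP-, against 9.25, 9.42, 8.92 and 9.01 in vehicle libraries titled GFP+. The gates did not overlap in either arm. The gate ratio averaged -2.39 ± 0.23 in odor pools and -2.85 ± 0.28 in vehicle pools (SD, n = 4 each; limma adjusted p = 7.94e-07 and 2.58e-07), and -2.62 over all pools (95% interval -2.84 to -2.40; adjusted p = 1.34e-08).

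Marcks encodes a protein kinase C substrate that binds membrane and actin, and leukocytes express it too. Its log2 level was 11.70, 10.94, 11.13 and 11.68 in odor libraries titled GFP-, against 13.86, 13.51, 13.76 and 13.87 in odor libraries titled GFP+. It was 11.72, 11.42, 10.77 and 11.55 in vehicle libraries titled GFP-, against 13.67, 13.65, 13.57 and 13.39 in vehicle libraries titled GFP+. All 8 titled GFP- libraries lay below all titled GFP+ libraries. The gate ratio averaged -2.39 ± 0.24 in odor pools and -2.21 ± 0.43 in vehicle pools (SD, n = 4 each; limma adjusted p = 2.87e-06 and 5.67e-06). Over all pools it was -2.30 (95% interval -2.56 to -2.03; limma adjusted p = 1.37e-07).

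Dbn1 encodes drebrin, an actin-binding protein of growing neurites. Its log2 level was 10.07, 10.10, 10.24 and 9.61 in odor libraries titled GFP-, against 10.47, 10.57, 10.72 and 9.93 in odor libraries titled GFP+. It was 10.14, 10.24, 10.32 and 10.08 in vehicle libraries titled GFP-, against 10.26, 10.50, 10.53 and 9.92 in vehicle libraries titled GFP+. The gates overlapped in both arms, and the pool ratio was negative in 7 of 8 pools. It averaged -0.41 ± 0.07 in odor pools (limma adjusted p = 0.0319) and -0.11 ± 0.18 in vehicle pools (limma adjusted p = 0.591; SD, n = 4 each). In odor pools the call was lost without odor pool 1, 2, 3 or 4 (adjusted p from 0.0614 to 0.112) and without the pool block (0.163). The ratio over all pools, -0.26, passed at a limma adjusted p of 0.038, gave 0.168 without the pool block, and passed in 1 of 8 fits that left out a pool, with adjusted p between 0.0299 and 0.0947; the call was kept without vehicle pool 4 and lost without each other pool.

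Tubb3 encodes the beta tubulin of neurons, and Dcx a microtubule-associated protein of migrating and immature neurons. Tubb3 measured 14.33, 14.53, 14.83 and 14.33 in odor libraries titled GFP-, against 14.15, 14.67, 14.49 and 14.38 in odor libraries titled GFP+. It measured 14.45, 14.40, 14.57 and 14.46 in vehicle libraries titled GFP-, against 14.38, 14.76, 14.67 and 14.38 in vehicle libraries titled GFP+. The Tubb3 gate ratio was negative in 4 of 8 pools and averaged 0.00 ± 0.21 (SD, n = 8; 95% interval -0.20 to 0.21; limma adjusted p = 0.991). Dcx measured 12.84, 12.77, 12.34 and 12.57 in odor libraries titled GFP-, against 12.56, 12.73, 12.49 and 12.79 in odor libraries titled GFP+. It measured 13.04, 12.90, 13.02 and 12.83 in vehicle libraries titled GFP-, against 12.90, 12.84, 12.82 and 12.78 in vehicle libraries titled GFP+. The Dcx ratio averaged 0.05 ± 0.17 (SD, n = 8; 95% interval -0.14 to 0.24; limma adjusted p = 0.703). These intervals leave room for small differences of either sign, and centring each library on its median put both ratios above 0, at 0.35 for Tubb3 and 0.40 for Dcx.

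The collapsin response mediator proteins carry semaphorin signals to the cytoskeleton, and the 3 measured among the 10 genes differed from each other. Dpysl3 measured 7.68, 8.21, 7.88 and 7.84 in odor libraries titled GFP-, against 11.59, 11.66, 11.80 and 11.90 in odor libraries titled GFP+. It measured 6.58, 7.77, 7.27 and 7.63 in vehicle libraries titled GFP-, against 11.63, 12.16, 12.06 and 11.30 in vehicle libraries titled GFP+. The gates lay more than 3 log2 units apart in every pool. Its ratio averaged -3.83 ± 0.27 in odor pools and -4.48 ± 0.60 in vehicle pools (SD, n = 4 each; limma adjusted p = 3.8e-07 and 1.5e-07), and -4.15 over all pools (95% interval -4.48 to -3.83).

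Dpysl5 measured 11.70, 11.57, 11.31 and 11.20 in odor libraries titled GFP-, against 12.27, 12.37, 11.64 and 11.96 in odor libraries titled GFP+. It measured 11.95, 11.79, 11.48 and 11.73 in vehicle libraries titled GFP-, against 12.11, 12.63, 12.00 and 12.23 in vehicle libraries titled GFP+. The titled GFP- library was lower in 8 of 8 pools, although the odor groups overlapped. The ratio averaged -0.62 ± 0.21 in odor pools and -0.50 ± 0.28 in vehicle pools (SD, n = 4 each), with limma adjusted p of 0.0114 and 0.0341. In odor pools it did not pass without odor pool 2 (0.0602) or 4 (0.0503), and in vehicle pools without vehicle pool 2 (0.154), 3 (0.0938) or 4 (0.0949), or without the pool block (0.0865). Over all pools it was -0.56 (95% interval -0.78 to -0.34; limma adjusted p = 0.00175) and passed in 8 of 8 such fits. Centring each library on its median ended the call (adjusted p = 0.0704 over all pools, 0.11 in odor pools and 0.351 in vehicle pools).

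Crmp1 measured 13.49, 13.54, 13.12 and 13.31 in odor libraries titled GFP-, against 13.64, 13.69, 13.37 and 13.47 in odor libraries titled GFP+. It measured 13.61, 13.54, 13.19 and 13.36 in vehicle libraries titled GFP-, against 13.68, 13.69, 13.64 and 13.60 in vehicle libraries titled GFP+. The titled GFP- library was lower in 8 of 8 pools, by -0.20 ± 0.12 (SD, n = 8), and the limma adjusted p over all pools was 0.0832. Centring each library on its median turned this ratio to 0.15. Without centring, the ratio of -0.20 passed with dim genes left out (limma adjusted p = 0.0388) and with a trend in the prior variance (0.0136). Of 2 other measured relatives, Dpysl2 had a ratio of 0.20 (limma adjusted p = 0.104), and Dpysl4 was below the background guide in all 4 groups and did not pass.

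Gng8 encodes the G protein gamma subunit of immature olfactory neurons. Its log2 level was 5.66, 5.33, 5.72 and 5.78 in odor libraries titled GFP-, against 10.99, 10.05, 10.14 and 10.27 in odor libraries titled GFP+. It was 5.79, 5.99, 5.59 and 5.81 in vehicle libraries titled GFP-, against 10.40, 10.92, 10.75 and 10.00 in vehicle libraries titled GFP+. The titled GFP- values, 5.33 to 5.99, lay close above the highest background guide, 4.97. The gate ratio averaged -4.74 ± 0.41 in odor pools and -4.72 ± 0.42 in vehicle pools (SD, n = 4 each; limma adjusted p = 5.75e-08 and 6.77e-08), and over all pools its 95% interval was -5.03 to -4.43.

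Set beside it are 3 other G protein subunit genes; Gnal and Gng13 were chosen after their values were seen. Gnas, the stimulatory alpha subunit that precedes Gnal in young neurons, measured 6.54, 5.73, 5.78 and 6.66 in odor libraries titled GFP-, against 9.66, 10.37, 10.52 and 10.65 in odor libraries titled GFP+. Its ratio over all pools was -4.15 (SE 0.20; limma adjusted p = 7e-08), with the library titled GFP- lower in 8 of 8 pools. Gnal, the alpha subunit of odor transduction, had a ratio of 0.02 (95% interval -0.14 to 0.19; limma adjusted p = 0.857). Gng13, the gamma subunit of mature neurons, had a ratio of 0.17 (95% interval -0.07 to 0.41; limma adjusted p = 0.273). The Gnas locus makes several transcripts, and which of them its probe set reads was not tested.

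**Figure D2:**
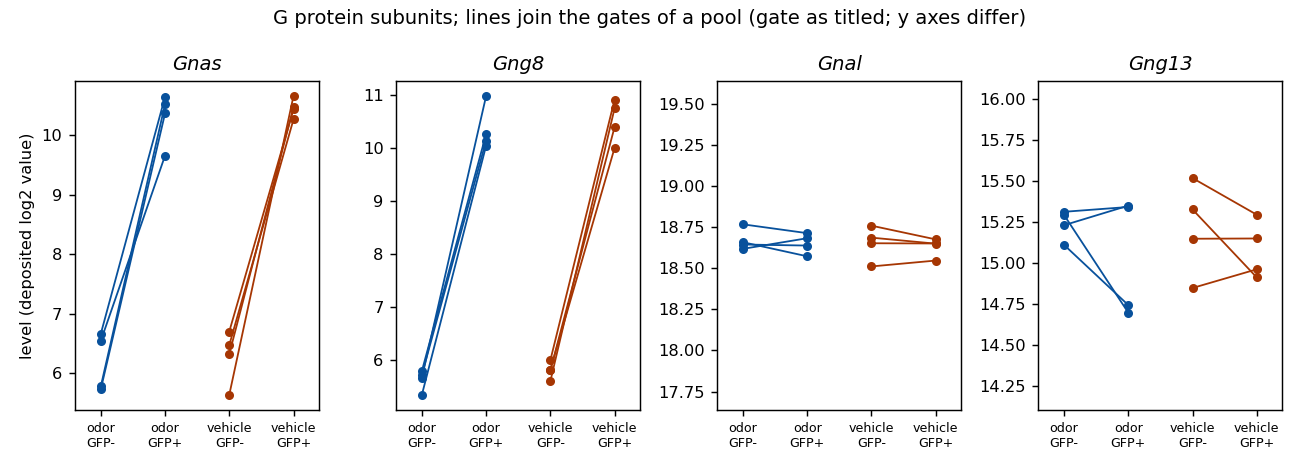
Log2 expression level (y axis, deposited scale) of Gnas, Gng8, Gnal and Gng13 in every library, odor before vehicle and titled GFP- before titled GFP+. Each point is a library, and lines join the gates of a pool. The pool gate ratios (log2, titled GFP- minus titled GFP+) of Gnas and Gng8 were between -5.33 and -3.12 in every pool. Those of Gnal and Gng13 were between -0.12 and 0.59.

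Ncam1 encodes a cell adhesion molecule of neurons and their axons. It measured 16.59, 16.56, 16.53 and 16.27 in odor libraries titled GFP-, against 16.29, 16.54, 16.30 and 16.27 in odor libraries titled GFP+. It measured 16.52, 16.65, 16.55 and 16.58 in vehicle libraries titled GFP-, against 16.21, 16.74, 16.52 and 16.37 in vehicle libraries titled GFP+. The groups overlapped. The ratio averaged 0.13 ± 0.15 over 8 pools (SD; 95% interval -0.06 to 0.32; limma adjusted p = 0.298) and was 0.48 when each library was centred on its median.

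**Figure D3:**
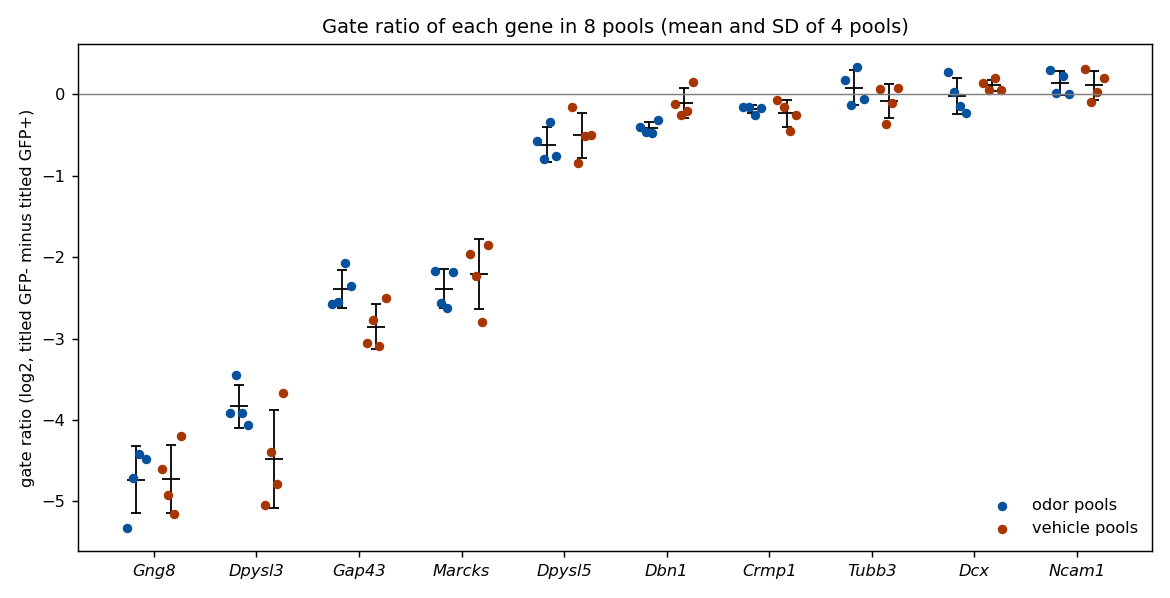
Gate ratio (log2, titled GFP- minus titled GFP+) of the 10 genes, with a point per pool and odor pools before vehicle pools. Bars give the mean and SD of the pools of each arm. Gng8 and Dpysl3 lie lowest, Gap43 and Marcks next, and the other 6 genes lie within 1 log2 unit of 0; the signs of Dbn1 and Crmp1 turn when libraries are centred on their median.

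The order of the ratios was firm in places. Gng8 was lower than Dpysl3 in 7 of 8 pools, by -0.58 ± 0.57 (SD, n = 8), a gap about as large as its spread. Dpysl3 lay below Gap43 in 8 of 8 pools, by -1.53 ± 0.37. Gap43 and Marcks did not differ beyond their spread (-0.32 ± 0.49, 6 of 8 pools). Marcks lay below Dpysl5 in 8 of 8 pools, by -1.74 ± 0.38. Among the last 6 genes the gaps between neighbours were -0.30 ± 0.27 or smaller.

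Over the 16 libraries the 10 genes followed their common pattern to unequal degrees. Against the mean of their standardised levels, Pearson's r was 0.909 for Dpysl5, 0.858 for Gng8, 0.830 for Dpysl3, 0.804 for Marcks, 0.796 for Gap43, 0.764 for Crmp1 and 0.649 for Dbn1. It was 0.253 for Tubb3, 0.183 for Dcx and 0.0933 for Ncam1. Each gene is part of that mean, and the libraries share pools and gates, so these values are a description. Genes outside the 10 were ranked by likeness to that mean only if they averaged above the background guide over the 16 libraries. Olfr, numbered Gm and Rik names were left out. The genes most like that mean were then Dock8 (r = 0.932), Clec4a1 (0.917), Myadm, Asf1b, H2ax, Ptpn6, Apbb1ip and Atp8a1 (0.896), in falling order. Their gate ratios ran between -3.09 for Atp8a1 and -0.34 for Dock8.

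Within a gate, the 4 genes with the strong difference were compared as 6 pairs over 8 libraries in each gate, or 12 relations. The highest was that of Gap43 with Gng8 in the libraries titled GFP+, with Pearson's r = 0.663 (exact permutation p = 0.0873, adjusted 0.435) and Spearman's rho = 0.690 (exact permutation p = 0.0694, adjusted 0.584). Without the 2 libraries farthest from the median of Gap43, r was 0.449. No relation passed after adjustment, and the 4 libraries of an arm are too few for a value of their own.

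Odor made no difference that passed a test in any of the 10 genes. The change of the gate ratio with odor, odor pools minus vehicle pools, was past the threshold for 0 of the 10 genes and for 0% of all genes in limma, against 1 of the 10 and 5.69% of all genes at an unadjusted p under 0.05. That gene was Gap43, whose ratios were -2.58, -2.55, -2.07 and -2.36 in odor pools, against -3.06, -2.77, -3.09 and -2.50 in vehicle pools. The arms overlapped, and the difference was 0.46 (95% interval 0.02 to 0.91; limma adjusted p = 0.859). Dpysl3 had ratios of -3.91, -3.45, -3.92 and -4.06 in odor pools, against -5.05, -4.39, -4.79 and -3.67 in vehicle pools. Its difference was 0.64 (95% interval -0.00 to 1.29; limma adjusted p = 0.859). For Gng8 the difference was -0.01 (95% interval -0.61 to 0.58) and for Marcks -0.18 (95% interval -0.71 to 0.35). With 4 pools per arm these intervals leave room for changes of either sign. The intervals are not adjusted for the number of genes.

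Within a gate, the same 10 genes were compared between the arms. Among libraries titled GFP-, odor against vehicle passed for 0 of the 10 genes and 0% of all genes in limma, against 1 of the 10 (Dpysl3) and 4.46% of all genes at an unadjusted p under 0.05. The 10 log2 differences ran from -0.32 for Dcx to 0.59 for Dpysl3 (95% interval 0.05 to 1.14; limma adjusted p = 0.996), with a median of -0.07. Among libraries titled GFP+, odor against vehicle passed for 0 of the 10 genes, where 0.0103% of all genes (2 genes, or 1 with the replicate number as a block) passed, and 0 of the 10 and 4.24% of all genes had an unadjusted p under 0.05. Those differences ran from -0.19 for Dcx to 0.18 for Marcks, with a median of -0.11.

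**Figure D4:**
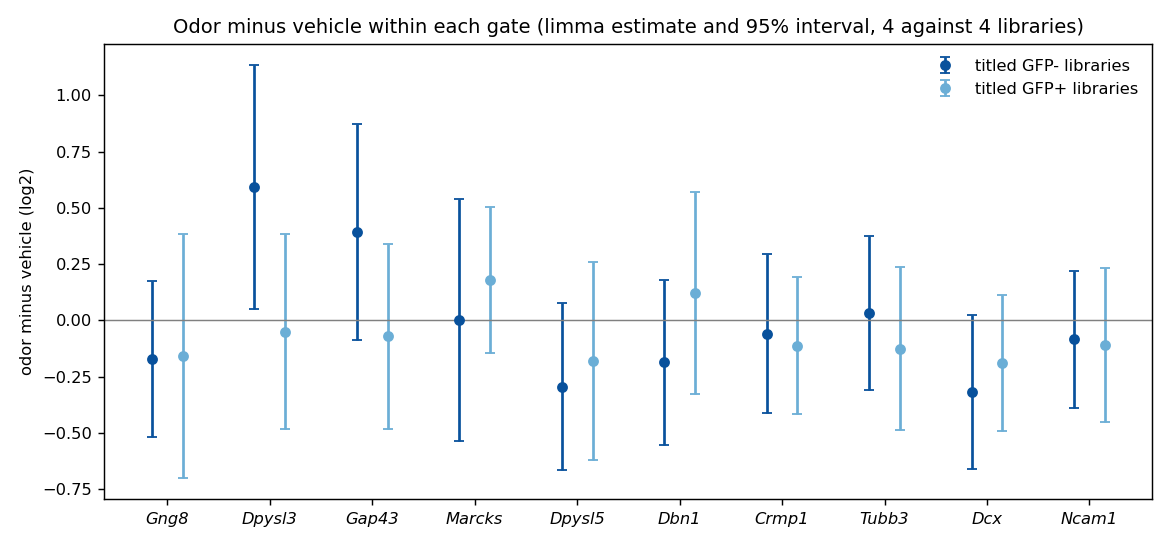
Log2 difference between odor and vehicle libraries of the 10 genes within each gate, with 95% intervals from limma. All differences lie between -0.32 and 0.59, and 0 of the 10 genes passed the threshold in either gate.

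Other genes of growing axons were counted from lists of the same pathway, beside the 14.4% of all genes called higher and 13.2% called lower over all pools. Where titled GFP- levels lay below the background guide, they were raised to its highest value, 4.97, and the difference is given as a bound. Of 12 microtubule genes 1 was called higher and 5 lower over all pools, with a median ratio of -0.15. Tubb2b, a beta tubulin of developing neurons, had a ratio of -2.24 (limma adjusted p = 1.27e-07), and Stmn1, a tubulin-sequestering stathmin, had -2.19 (limma adjusted p = 1.34e-08). Tubb2a, at -1.23, and Dclk1, a relative of Dcx, at -0.71, were called lower too. Of 12 growth cone membrane and actin genes 1 was higher and 7 lower, with a median ratio of -0.47, or -0.20 with levels raised to the guide. Of these 7, Basp1 lay below the background guide in all 4 groups. The actin-sequestering Tmsb10 had a ratio of -2.02. Ablim1, an actin-binding LIM protein, was at least 2.09-fold lower, the bundling protein Fscn1 at least 1.51-fold lower and Marcksl1, a relative of Marcks, at least 1.76-fold lower. Of 19 adhesion and guidance genes 3 were higher and 5 lower, with a median of -0.02, and the share called higher was close to that of all genes. The adhesion molecule Alcam had a ratio of -1.72, and Nrcam, another, was at least 1.42-fold lower. The ephrin receptor gene Epha5 had a ratio of 0.85, and its relative Epha4 was called lower but lay below the background guide in all 4 groups. Robo2, a receptor for Slit guidance cues, was called lower at -0.28 but turned sign when libraries were centred on their median. With that centring the counts were 5 higher and 5 lower for the microtubule genes, 4 and 5 for the growth cone genes, and 12 and 3 for the adhesion and guidance genes. Of all 19505 genes, 16128 were called with that centring, 88.9% of them higher.

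Of 17 transcription and signalling genes of immature neurons 1 was called higher and 6 lower, with a median ratio of -0.11. Of all genes 14.4% were called higher and 13.2% lower. Nhlh1, a bHLH factor of young neurons, averaged 4.42 and 4.36 in odor and vehicle libraries titled GFP-, against 9.77 and 9.66 in odor and vehicle libraries titled GFP+. The titled GFP- means were below the background guide, so it was at least 26.8-fold lower (limma adjusted p = 1.17e-07). Cxcr4, a chemokine receptor of neuronal precursors and of leukocytes, was below the guide there too and at least 17.4-fold lower. Sox11, a factor of newborn neurons, had a ratio of -3.04 (limma adjusted p = 5.58e-08). Among genes of mature neurons, 6 of 17 were called higher and 0 lower, with a median of 0.17. Those with the strongest ratios were Pde1c (0.67), Slc24a4 (0.51), Ano2 (0.46) and Pde4a (0.45), which act in odor signalling and its shut-off. Omp had a ratio of 0.04 (limma adjusted p = 0.717). With median centring, 9 transcription and signalling genes were higher and 5 lower, and 16 mature neuron genes were higher and 0 lower.

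**Figure D5:**
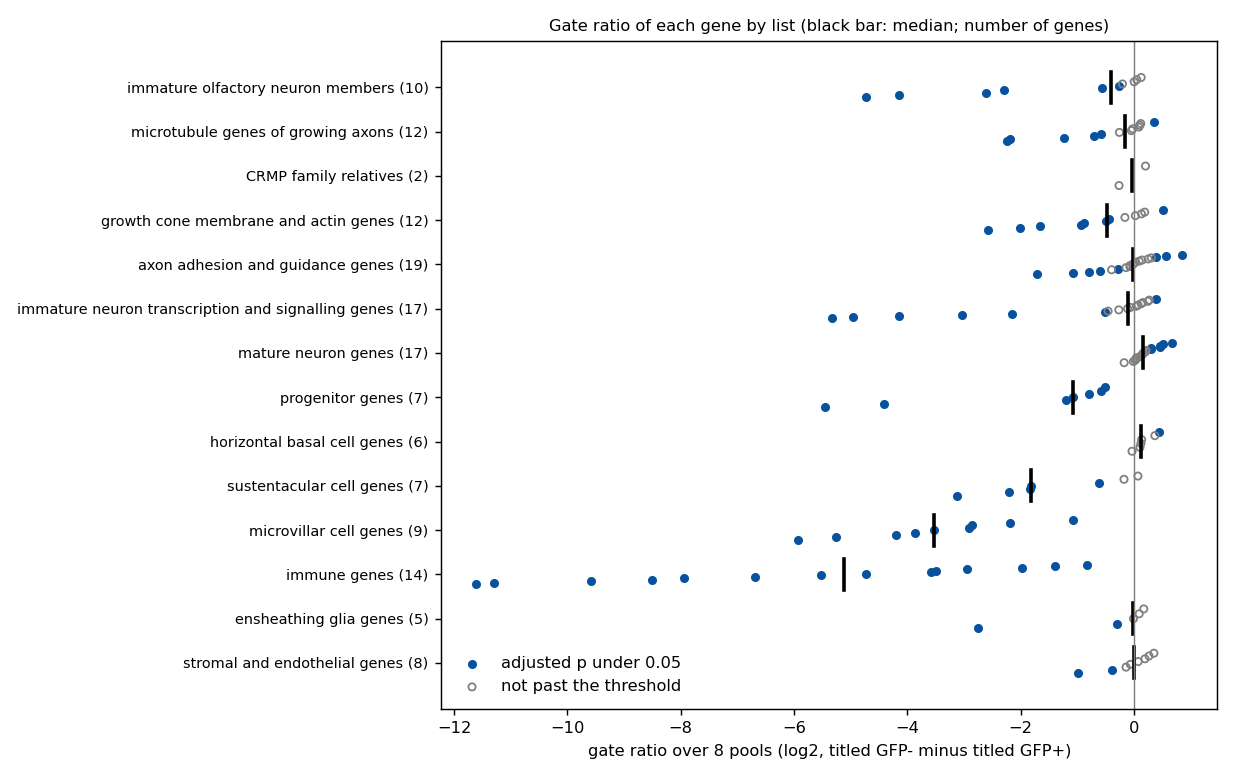
Gate ratio over all pools (log2, titled GFP- minus titled GFP+) of each measured gene in the gene lists, 1 row of points per list, with the list median; ratios are as deposited, also for genes below the background guide. Immune and microvillar genes lie lowest, and mature neuron genes lie around 0.17. Among the called genes, the signs of Dbn1, Robo2 and Sox10 turn when libraries are centred on their median. Signs of further genes that were not called, such as Crmp1 and Tuba1a, turn too.

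Markers of other cells moved with the same gate, where 13.2% of all genes were called lower over all pools. All 14 immune genes were called lower in the libraries titled GFP-, with a median ratio of -5.12, or -4.85 with levels raised to the guide. Their mean level was 4.34 to 5.19 in odor libraries titled GFP-, against 10.17 to 10.84 in odor libraries titled GFP+. It was 4.23 to 4.88 in vehicle libraries titled GFP-, against 9.74 to 10.94 in vehicle libraries titled GFP+. In each arm 8 of the 14 were below the background guide in the libraries titled GFP-, with Ptprc only in odor and S100a9 only in vehicle libraries. All 7 progenitor genes were called lower, and 4 of the 7 were below the background guide in the libraries titled GFP-. Of these, Neurog1 and Cdk1 were below it in all 4 groups. Ezh2 did not pass with median centring (limma adjusted p = 0.35). Mki67 was at least 26.4-fold lower and Kit at least 9.16-fold lower. All 9 microvillar cell genes were lower (median -3.53, unchanged with levels raised to the guide), as were 5 of 7 sustentacular cell genes (median -1.82), among them Sult1c1 at -3.13 and Cyp2a5 at -2.21. The microvillar gene Chat was below the background guide in all 4 groups. Of 5 ensheathing glia genes 2 were lower, Apoe at -2.76 and Sox10, which was below the background guide in all 4 groups and turned sign with centring. Of 8 stromal and endothelial genes 2 were lower, and 7 were below the background guide in libraries titled GFP- of both arms. Of the 2 called lower, Pecam1 was below it in all 4 groups. The part of these cells in the ratios of the 10 genes was not tested. In the change of the gate ratio with odor, 0 genes of any of these lists passed.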

How the data were processed

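The 16 samples are arrays of sorted olfactory mucosa cells. Per the submitters' processing notes, the authors made the deposited log2 expression values in Affymetrix Expression Console; the version, the summarisation and the genome build used are not stated in the labels or headers. The 28846 probe sets include 94 spike-ins or background probes and 6546 positive or negative controls, all left out; of the others, 19572 named 1 gene and 2634 named none; the brightest probe set of a gene was kept, leaving 19505 genes.

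Two-sided tests came from lmFit and eBayes of limma 3.58.1, run in R 4.3.3, with Benjamini-Hochberg adjustment over all genes and a threshold of 0.05. The gate ratios and their difference came from a joint fit (16 libraries, pool as fixed block), since 24 mice in pools of 3 make 8 pools and both gates of a pool hold the same mice; the deviations of its gates from their group means correlated at 0.0979 to 0.287. Odor was compared with vehicle within each gate without a block. Same-numbered odor and vehicle libraries correlated at 0.157 to 0.21 in titled GFP+ libraries and at 0.0879 to 0.161 in titled GFP- libraries; a fit with that number as a block is given as an alternative. The code was tested on simulated data. Alternatives were the block, median centring, quantile normalization, leaving out dim genes, a variance trend, averaged probe sets and each pool left out.

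All 10 genes are named, with S100a5, Omp, up to 4 called genes of each other list with the largest ratios, and the 8 genes most like the 10; any other is a choice made after the values were seen. The members and lists were chosen with earlier results of these data known. Some genes of the other lists were not analysed here.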

Additional observations from a re-analysis of the deposited data

Results flagged for a closer look

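In 3 of 60 sets of 4 values, a value stood far from the rest of its group; chance flags about 1 set in 20. The Gap43 level of 6.22 in odor library 2 titled GFP- was the lowest of its group. The Crmp1 gate ratio of -0.25 in odor pool 3 was the lowest of the odor pools. The Ncam1 level of 16.54 in odor library 2 titled GFP+ was the highest of its group.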

How the results depend on the processing

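The calls of Gng8, Dpysl3, Gap43 and Marcks held under all alternatives run. Centring each library on its median added 0.35 to every gate ratio and gave 12174 called genes in odor pools (main 3521; 87.3% higher against 43.3%), 12023 in vehicle pools (main 3156; 87.3% against 38.5%) and 16128 over all pools (main 5378; 88.9% against 52.2%). It turned the ratio to 0.33 for Dcx and 0.17 for Crmp1 in odor pools, to 0.28 for Tubb3, 0.12 for Crmp1, 0.25 for Dbn1 and 0.33 for Omp in vehicle pools, and to 0.15 for Crmp1 and 0.092 for Dbn1 over all pools. It turned Marcks to -0.020 for odor against vehicle in titled GFP- libraries. Quantile normalization turned Omp to 0.025 in vehicle pools, Tubb3 to -0.00097 over all pools, the odor difference of Ncam1 to -0.016 and Marcks to -0.027 in titled GFP- libraries. Over all genes the odor difference gave 1 call with dim genes left out and 2 with the variance trend (main 0). In titled GFP+ libraries (main 2) odor gave 1 call with the replicate block, 1 with quantile normalization, 0 with dim genes left out and 0 to 2 with a pool left out. Without the pool block, Dbn1 was lost in odor pools (limma adjusted p = 0.163) and over all pools (0.168), and Dpysl5 in vehicle pools (0.0865). The other gate calls of the 10 genes stayed. The replicate block between arms changed no call of the 10 genes. Crmp1 passed over all pools with dim genes left out (0.0388) and with the variance trend (0.0136). With a pool left out, values that changed sign ranged in odor pools from -0.11 to 0.052 for Dcx and -0.0041 to 0.15 for Tubb3, in vehicle pools from -0.13 to 0.017 for Tubb3, and over all pools from -0.041 to 0.049 for Tubb3. The odor difference ranged from -0.16 to 0.18 for Gng8, -0.23 to 0.0012 for Dpysl5, -0.022 to 0.10 for Crmp1 and -0.041 to 0.091 for Ncam1. Odor against vehicle ranged in titled GFP- libraries from -0.075 to 0.092 for Tubb3, -0.14 to 0.020 for Crmp1 and -0.20 to 0.14 for Marcks, and in titled GFP+ libraries from -0.18 to 0.033 for Gap43, -0.21 to 0.073 for Dpysl3 and -0.0061 to 0.29 for Dbn1. The cause of these changes was not tested. Dbn1 in odor pools passed in 4 of 8 fits with a pool left out (adjusted p from 0.0323 to 0.112).

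Values near the background guide compress ratios. Mean titled GFP- levels of Nhlh1, Cxcr4, Ablim1, Fscn1, Nrcam, Mki67 and Kit lay below it in both arms. So did those of 8 of 14 immune genes in each arm, not all the same genes, and of Marcksl1 in odor pools. These genes have bounds only. Titles and cell type entries disagree on the gate, and only S100a5 was used to set the titles against the data. S100a5 was higher in 8 of 8 pools on the side titled GFP-, which the cell type entries name GFP+. Cells were sorted by reporter fluorescence and not by a marker of age. With 4 pools per arm, small effects of odor could not be seen.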
